A study of Mus musculus with 4 samples.

Results

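The 96 genes described here encode or assemble the nuclear-encoded part of the mitochondrial respiratory chain and the ATP synthase, and they are 96 of the 30268 rows of a single-cell count table of the embryonic mouse heart. They were taken by name: rows starting with Nduf, Uqcr, Atp5, Sdha to Sdhd or Cox followed by 4 to 8, leaving out 4 names that end in -ps. By name they fall into complex I (38 genes), complex I assembly factors (7), complex II (4), complex II assembly factors (4), complex III (8), complex IV (17) and ATP synthase (18). The respiratory chain passes electrons from reduced cofactors to oxygen and pumps protons across the inner mitochondrial membrane, and the ATP synthase uses that gradient to make ATP. Most of these complexes join nuclear-encoded subunits with a few encoded by the mitochondrial genome, the mt- genes, whereas complex II is nuclear-encoded throughout. Heart muscle relies on this pathway more and more as it matures, and several subunits of complex IV have a further gene that is used in muscle or in other particular tissues.

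The series profiled embryonic hearts by Drop-seq, a droplet method that tags each captured transcript near its 3' end with a unique molecular identifier (UMI). There were 4 libraries, 1 for each pairing of genotype (control or Lats1/2 CKO) with embryonic day (E13.5 or E14.5). Control hearts were Wt1 CreERT2/+; Rosa26mTmG/+, and CKO hearts carried the floxed alleles Lats1/2 F/F in addition, so every library had the inducible Cre at Wt1 and the mTmG reporter. Lats1 and Lats2 are kinases of the Hippo pathway, and Wt1 is active in the epicardium, the outer cell layer of the heart, from which many cardiac fibroblasts derive. The number of embryos in a library and the tamoxifen schedule are not given in the sources used here.

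Of 24849 deposited cells 21495 passed the filters, 4478 to 5915 in each library, with median UMIs per cell of 1588.5 (control) and 2015 (CKO) on the earlier day and 955 and 1035 on the later. Cells were sorted by marker genes, and a class name below stands for cells that passed that gate, such as cardiomyocyte-like cells. The 7 classes compared held 18004 cells: 8081 cardiomyocyte, 3628 fibroblast, 3009 endothelial, 1751 valve mesenchyme, 594 epicardial, 525 mural (pericyte and smooth muscle) and 416 macrophage cells, with at least 51 in each library. The fibroblast gate was broad, and fibroblast markers were also counted in epicardial, valve and mural cells, at medians of 179.5, 127 and 89.6 per 10000 UMIs. UMIs from all 12 cardiomyocyte markers were present in every other class, where their sum was 0.774% to 14.2% of the cardiomyocyte level of the same library, and higher in both E14.5 libraries than in both E13.5 ones in each class. In epicardial cells much of the sum came from Myl7, as it was 7.35% to 10.9% with all markers and 1.21% to 5.20% without Myl7. Elsewhere the sum without Myl7 ran from 0.728% in macrophages to 14.1% in mural cells. In epicardial and fibroblast cells summed, Lats2 was counted at 41.4, 24.5, 41.8 and 40.6 CPM (UMIs per 1000000 UMIs of the class) in control E13.5, CKO E13.5, control E14.5 and CKO E14.5, and Lats1 at 26.6, 26.8, 27.3 and 23.8. In epicardial cells alone Lats2 stood at 60.8, 33.9, 88.5 and 47.5 CPM, from 24, 24, 15 and 24 UMIs, and was lower in both CKO libraries. Transcript tags at the 3' end need not lie in the deleted exons, so these levels say little about recombination.

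Respiratory chain transcripts were far more abundant in cardiomyocytes than in the other cells of the same hearts. The 96 genes together made up 8.08%, 8.54%, 7.81% and 8.25% of cardiomyocyte UMIs in control E13.5, CKO E13.5, control E14.5 and CKO E14.5, an order kept throughout. In the sum of the other 6 classes they made up 2.48%, 2.75%, 2.64% and 2.61%, so the cardiomyocyte shares did not overlap the others and were 2.96 to 3.26 times as high. Of the 94 genes with enough UMIs to test, 91 were higher in cardiomyocytes and 2 were lower by edgeR's quasi-likelihood test with the library as a block, at a Benjamini-Hochberg adjusted p under 0.05. Among all 14923 genes tested 32.3% were higher and 35.2% lower. The median log2 difference of the 94 genes was 1.95, or 3.87-fold, beside -0.02 for all genes. Without TMM scaling the median of all genes moved to -0.37, with 20.4% of genes higher and 53% lower, and the respiratory chain genes had a median of 1.61 with 88 higher and 3 lower. In 89 of the 96 genes the cardiomyocyte level was the higher one in every library, and in 81 the lowest cardiomyocyte library lay above the highest of the other cells. The same shares over all genes are not given here, so these counts have no background beside them. The rows Atp5o_Donson and Cox7b2 held 10 and 26 UMIs over both sides and were not tested.

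**Figure D1:**
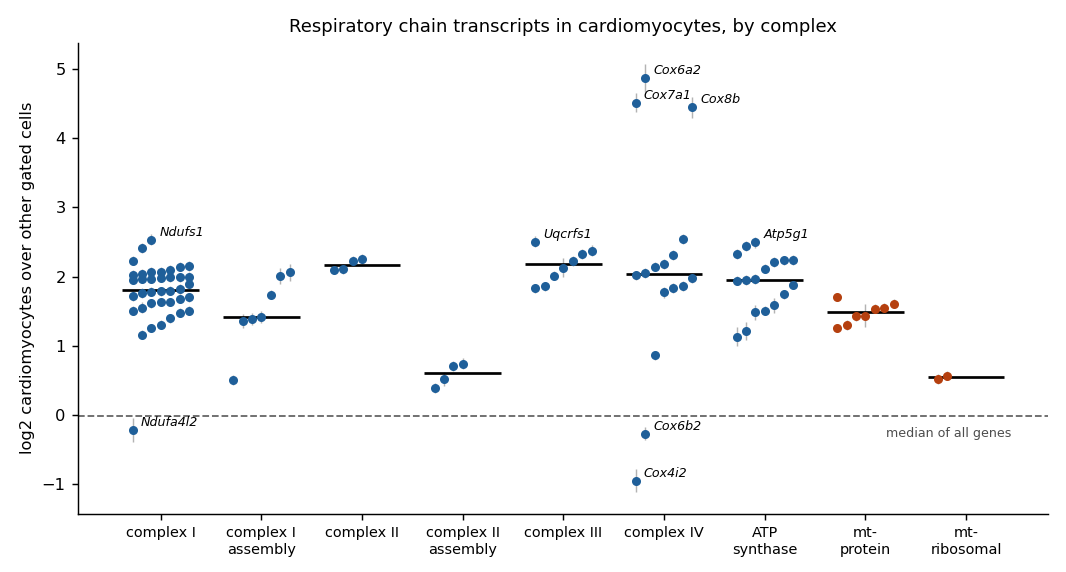
Log2 difference between cardiomyocytes and the sum of the other 6 classes (y axis) for each tested gene, grouped by complex (x axis), with standard errors from the edgeR fit over 4 libraries, horizontal lines for group medians, the mt- rows in orange and a dashed line at the median of all genes. Cox6a2, Cox7a1 and Cox8b stand highest at 4.44 to 4.87, and Cox4i2, Cox6b2 and Ndufa4l2 lie below 0.

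Complex I takes electrons from NADH, and 37 of its 38 genes were higher in cardiomyocytes, with a median log2 difference of 1.80. Its most abundant gene by name was Ndufa4, since assigned to complex IV, with 2134, 1986, 1618 and 1866 CPM in cardiomyocytes. In the other cells Ndufa4 was counted at 839, 823, 652 and 707, below the lowest cardiomyocyte library (log2 1.68, SE 0.06). Ndufs1, a core subunit with iron-sulphur clusters, had 523, 431, 344 and 382 CPM in cardiomyocytes and 96.1, 98.9, 84.9 and 88.3 elsewhere (log2 2.53, SE 0.08, edgeR adjusted p = 1.1e-12). This was the widest difference in the complex, followed by Ndufv1, which belongs to the NADH-oxidising module (log2 2.41, SE 0.07). The smallest differences among those called were those of the accessory subunits Ndufa7 (log2 1.16) and Ndufa2 (log2 1.26). The 7 Ndufaf genes encode assembly factors, which help to build complex I without staying in it, and all were called higher, from log2 0.50 for Ndufaf2 to 2.06 for Ndufaf6. Ndufaf4, the most abundant of them, had 224, 195, 194 and 184 CPM in cardiomyocytes and 81.4, 73.7, 77.9 and 71.4 elsewhere, whereas Ndufaf2 had 113, 118, 106 and 94.6 and 106, 91.7, 96.4 and 96.4. The 2 sides overlapped for Ndufaf2, and without TMM scaling it was not called.

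Complex II, succinate dehydrogenase, links the tricarboxylic acid cycle to the chain, and its 4 subunits were higher in cardiomyocytes by nearly the same amount, from log2 2.10 for the membrane anchor Sdhd to 2.25 for the iron-sulphur subunit Sdhb. Sdhb had 1188, 1426, 961 and 1088 CPM in cardiomyocytes and 308, 364, 299 and 267 in the other cells. Its assembly factors stood much closer to the other cells, with a median log2 difference of 0.61 over Sdhaf1 to Sdhaf4. Sdhaf2, which is needed to attach the flavin cofactor to Sdha, had 65.5, 62, 49.1 and 47.9 CPM in cardiomyocytes and 60.3, 62.7, 46.7 and 48 elsewhere, and it was the higher in cardiomyocytes in 2 of 4 libraries. The 4 factors were called higher with TMM scaling, and without it Sdhaf2 and Sdhaf3 were not. Summed over a library, the UMIs of the 4 factors were 1.17 to 1.24 times as frequent in cardiomyocytes, beside 3.24 to 3.82 times for the 4 subunits, so these ranges did not overlap.

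Complex III passes electrons from ubiquinol to cytochrome c, and its 8 genes were higher in cardiomyocytes with a median log2 difference of 2.18. Uqcr10, a small subunit and the most abundant of them, had 1327, 1633, 1636 and 1758 CPM in cardiomyocytes and 295, 408, 459 and 464 elsewhere (log2 2.33, SE 0.08). Uqcrfs1, the Rieske iron-sulphur protein, had 1250.1, 1047, 711 and 806 and 251, 232, 185 and 177 (log2 2.50, SE 0.08). The cardiomyocytes were above the other cells in every library for both genes. The core subunit Uqcrc1 was counted at only 4.5, 35.6, 29.8 and 45.3 CPM in cardiomyocytes, far below the other core subunit Uqcrc2 at 973, 875, 676 and 754. Reads that a gene shares with a near-identical copy can be lost in counting, which was not tested here, and the level of Uqcrc1 is uncertain.

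Complex IV, cytochrome c oxidase, hands electrons to oxygen, and 14 of its 16 tested genes were higher and 2 lower in cardiomyocytes, with a median log2 difference of 2.04. Cox4i1, the usual form of subunit 4, had the highest mean cardiomyocyte level among the 96 genes, with 3748, 3714, 3079.9 and 3012 CPM against 1263, 1287, 1118 and 1050.3 in the other cells (log2 1.86, SE 0.07). Cox5a had 2342, 2207, 1709 and 1661 against 482, 465, 405 and 362 (log2 2.55, SE 0.07, edgeR adjusted p = 5.8e-13). Both genes were separated in every library, and Cox5a by the wider margin. Cox7a2l, which takes part in joining complexes III and IV into supercomplexes, had the smallest difference among the called-higher genes of the group (log2 0.86, SE 0.07).

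The ATP synthase had its 17 tested genes higher in cardiomyocytes, with a median log2 difference of 1.95. Atp5b, the catalytic beta subunit, had 3696, 3692, 2681 and 2825 CPM in cardiomyocytes and 803, 862, 675 and 659.7 in the other cells (log2 2.44, SE 0.07, edgeR adjusted p = 7.0e-13). Subunit c, which forms the rotating membrane ring, is encoded by 3 genes that give the same mature protein. Of these Atp5g3 differed by log2 2.24 (SE 0.07), Atp5g1 by 2.49 (SE 0.08) and Atp5g2 by 1.13 (SE 0.14). Atp5g2 had few UMIs, at 6.15, 15.1, 46.5 and 58.7 CPM in cardiomyocytes, and was not higher there in every library. Atp5l was also low, at 7.1, 52, 38.3 and 50.5, and like Uqcrc1 its level is uncertain. Atp5s and Atp5sl carry the family name but are not core subunits of the enzyme, and they had differences of 1.21 and 1.48.

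The widest differences of the 96 genes were those of 3 complex IV isoforms known from heart and skeletal muscle, Cox6a2, Cox7a1 and Cox8b, whose widely expressed partners are Cox6a1, Cox7a2 and Cox8a. RefSeq promoter windows (build GRCm38.p6, from 250 bases before to 50 after an annotated start, on the strand of the gene) were matched for 80 of the 96 genes, 77 by symbol and 3 by an older symbol, and are printed for the isoform genes that had one, to let the muscle and general forms be compared letter by letter. The windows are Cox6a1 at chr5:115348909-115349208 (minus strand), Cox8a at chr19:7217567-7217866 (minus), Cox8b at chr7:140900397-140900696 (minus), Cox7a2 at chr9:79759804-79760103 (minus) and Cox7a1 at chr7:30183921-30184220 (plus), and capitals mark matches to the motifs named in the next paragraph.
Cox6a1: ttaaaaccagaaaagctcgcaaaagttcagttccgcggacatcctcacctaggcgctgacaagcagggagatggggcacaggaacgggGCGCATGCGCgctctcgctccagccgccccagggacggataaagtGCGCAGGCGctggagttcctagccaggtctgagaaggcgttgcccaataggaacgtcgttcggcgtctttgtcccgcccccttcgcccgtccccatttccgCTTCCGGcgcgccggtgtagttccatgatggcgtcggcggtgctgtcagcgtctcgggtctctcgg
Cox8a: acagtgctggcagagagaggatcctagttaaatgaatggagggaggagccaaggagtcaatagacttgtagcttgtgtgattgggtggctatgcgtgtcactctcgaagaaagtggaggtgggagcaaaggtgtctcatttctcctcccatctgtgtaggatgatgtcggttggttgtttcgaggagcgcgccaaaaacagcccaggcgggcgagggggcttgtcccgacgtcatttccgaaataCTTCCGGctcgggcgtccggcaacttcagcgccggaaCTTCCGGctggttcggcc
Cox8b: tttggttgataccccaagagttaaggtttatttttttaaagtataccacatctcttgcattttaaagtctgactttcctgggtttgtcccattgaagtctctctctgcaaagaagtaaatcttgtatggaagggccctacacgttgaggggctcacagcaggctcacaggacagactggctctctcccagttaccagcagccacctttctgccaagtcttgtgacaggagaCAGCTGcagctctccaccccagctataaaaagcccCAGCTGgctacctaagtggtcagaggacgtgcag
Cox7a2: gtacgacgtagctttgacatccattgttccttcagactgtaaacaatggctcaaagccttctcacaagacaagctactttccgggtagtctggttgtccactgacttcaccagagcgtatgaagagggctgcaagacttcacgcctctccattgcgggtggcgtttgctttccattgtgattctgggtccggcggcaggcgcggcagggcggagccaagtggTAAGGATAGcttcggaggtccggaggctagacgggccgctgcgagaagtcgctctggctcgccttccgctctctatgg
Cox7a1: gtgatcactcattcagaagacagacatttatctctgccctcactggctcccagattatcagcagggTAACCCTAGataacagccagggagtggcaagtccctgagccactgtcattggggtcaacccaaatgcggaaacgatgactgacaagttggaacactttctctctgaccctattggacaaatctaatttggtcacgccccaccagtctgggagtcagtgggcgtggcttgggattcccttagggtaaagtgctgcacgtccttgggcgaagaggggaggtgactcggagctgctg

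Capitals in Cox6a1 mark NRF1 matches (GCGCANGCG) and 1 ETS match (CCGGAAG), in Cox8a ETS matches, in Cox8b E-box matches (CAGCTG), and in Cox7a2 and Cox7a1 1 MEF2 match each (CTANNNNTA). Matches may overlap on the 2 strands. NRF1 and ETS factors such as GABP are known regulators of nuclear genes for mitochondrial proteins. Over the 86 promoters of the matched genes, an NRF1 match stood in 25, or 29.1%, beside 6.25% of all 32851 promoters in the table. An ETS match was in 23.3% beside 8.86%, a YY1 match (AAGATGGC) in 14% beside 2.75% and an ERR match (AAGGTCA) in 9.3% beside 4.72%. The loose MEF2-like pattern, with 16.3% beside 21%, and an E-box, with 6.98% beside 16.3%, stood below their share in all promoters. Both strands were searched, and a match is a description of the letters and not a shown binding site.

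Cox6a2 had 721, 818, 912 and 926 CPM in cardiomyocytes and 18, 26.2, 72.7 and 49.3 in the other cells (log2 4.87, SE 0.20, edgeR adjusted p = 1.7e-11). Cox7a1 had 211, 286, 356 and 408 and 6.05, 15, 27.1 and 28.6 (log2 4.51, SE 0.14, edgeR adjusted p = 1.1e-12). Cox8b had 88, 141, 182 and 279 and 2.57, 6.54, 17.4 and 18.8 (log2 4.44, SE 0.15, edgeR adjusted p = 2.4e-12). Each gene was separated between the sides in every library, and for all 3 both E14.5 libraries were above both E13.5 libraries on both sides. In the other cells the 12 cardiomyocyte markers moved the same way, at 2.96%, 3.99%, 8.34% and 7.54% of their cardiomyocyte level, and their part in the rise outside cardiomyocytes was not tested. At these stages the muscle forms were the minor ones in cardiomyocytes. Cox6a2 gave 23.3%, 25.3%, 27.5% and 27.3% of the UMIs of the Cox6a pair. Cox7a1 gave 8.3%, 10.9%, 14.49% and 17.8% of the Cox7a family, which includes Cox7a2l. Cox8b gave 5.79%, 6.4%, 10.6% and 14% of the Cox8 family. In the other cells the shares were 2.28%, 2.89%, 7.65% and 5.1%, 0.819%, 1.76%, 3.48% and 4.1% and 0.588%, 1.02%, 3.35% and 3.36%, well under the cardiomyocyte shares of the same library.

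Transcripts of these 3 isoforms outside cardiomyocytes were counted beside those of sarcomere genes. Over the 4 libraries Cox6a2 in fibroblast cells was 5.45% of its cardiomyocyte level and in epicardial cells 2.87%, while Myh6, the alpha myosin heavy chain, stood at 4.58% and 2.58% and Mybpc3, a myosin-binding protein, at 6.09% and 2.90%. Cox8b stood at 6.77% and 1.63%. Cox7a1 in macrophages, at 15.9%, was above the 2.59% to 5.55% of Myh6, Csrp3, Myoz2 and Mybpc3 in the same cells. The part of free or carried-over myocyte RNA in the levels of Cox6a2, Cox7a1 and Cox8b outside cardiomyocytes was not tested.

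**Figure D2:**
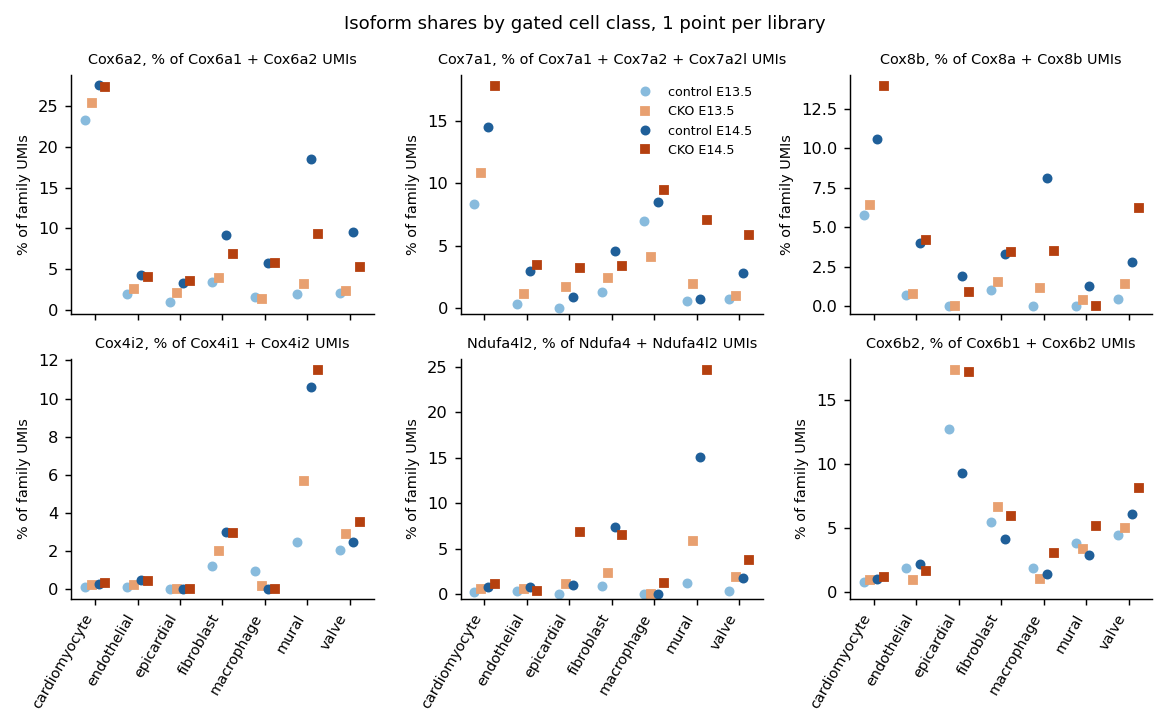
Share of a subunit family's UMIs (y axis, percent) held by 1 isoform in each class (x axis), with 1 point per library. Cox6a2, Cox7a1 and Cox8b are highest in cardiomyocytes, Cox4i2 and Ndufa4l2 in mural cells and Cox6b2 in epicardial cells.

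The isoforms Cox4i2, Cox6b2 and Ndufa4l2 stood apart from this pattern. Cox4i2, a subunit 4 form known from lung and vascular smooth muscle and from oxygen sensing, had 4.02, 8.24, 8.69 and 10.6 CPM in cardiomyocytes and 13, 20.7, 25.6 and 17.8 in the other cells (log2 -0.95, SE 0.17, edgeR adjusted p = 1.4e-04). Cox6b2, known as a testis form, had 19.4, 27.8, 24.7 and 31.1 and 30.1, 46.4, 30 and 50.3 (log2 -0.27, SE 0.10, edgeR adjusted p = 0.025). Ndufa4l2, a hypoxia-inducible relative of Ndufa4, had 4.97, 11.3, 12.5 and 21.5 and 4.4, 14.7, 28.6 and 30.5 and was not called (log2 -0.22, SE 0.18, edgeR adjusted p = 0.28). Against the sum of the other classes, Cox4i2 and Cox6b2 were lower in cardiomyocytes in every library and Ndufa4l2 in 3 of 4. Cardiomyocytes were not the lowest class, since Cox4i2 was lower still in endothelial and epicardial cells in every library, and Cox6b2 in endothelial cells. The call for Cox6b2 was lost without the CKO E13.5 library (log2 -0.22) or without the CKO E14.5 library (log2 -0.19). Ndufa4l2 stood at log2 0.016 without the control E14.5 library, and without TMM scaling it was called lower at -0.57.

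These 3 isoforms were unevenly spread over the non-myocyte classes, each of which was tested against the sum of the other 5 with the same kind of edgeR fit. In mural cells 4 of 94 genes were higher and 0 lower, beside 5.64% and 8.7% of all genes. An unadjusted p under 0.05 was reached by 9, of which 6 were higher, and DESeq2 called 0 lower. No share of all genes at these limits is given here, so these counts have no background beside them. Cox4i2 had 28.4, 69.5, 145 and 129.9 CPM in mural cells (log2 2.24, SE 0.26, edgeR adjusted p = 1.3e-13). Ndufa4l2 had 9.46, 45.9, 113 and 195 (log2 2.15, SE 0.29, edgeR adjusted p = 1.3e-10). Both were lowest in control E13.5. As shares of their families Cox4i2 made up 2.5% (1.4 to 4.08), 5.67% (4.27 to 7.35), 10.6% (6.4 to 16.2) and 11.5% (5.65 to 20.1) of Cox4i UMIs, and Ndufa4l2 1.26% (0.41 to 2.91), 5.88% (4.13 to 8.09), 15.1% (8.48 to 24) and 24.6% (14.46 to 37.3) of the Ndufa4 pair, with 95% Clopper-Pearson intervals that cover counting error only. Cox6a2 was also called in mural cells (log2 0.72, SE 0.25, edgeR adjusted p = 0.028), where it had 15.1, 27.5, 217 and 117 CPM, and the call was lost without control E14.5 (log2 0.26) or without CKO E14.5 (log2 0.64). The 12 cardiomyocyte markers summed to 3.85% to 14.2% of their cardiomyocyte level in mural cells, the widest range of the 6 classes.

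In epicardial cells 6 of 94 genes were higher and 7 lower, beside 14.3% and 12.6% of all genes. Cox6b2 led, at 86.1, 179, 70.8 and 154 CPM (log2 2.20, SE 0.18, edgeR adjusted p = 1.3e-11), and it made up 12.7% (8.98 to 17.3), 17.4% (14.7 to 20.3), 9.3% (4.9 to 15.7) and 17.2% (13.8 to 21) of the Cox6b pair. Its levels elsewhere were lower in every library, for example 15.3, 8.91, 19.2 and 13.3 in endothelial cells. Cox8a followed (log2 0.51, SE 0.10, edgeR adjusted p = 1.8e-04), then the complex I subunit Ndufv3 (log2 0.45, SE 0.11, edgeR adjusted p = 2.0e-03). Cox4i2 was not detected in epicardial cells: 0 of 1777455 UMIs over the 4 libraries, where 3 UMIs would be 1.69 CPM, beside 20.7 CPM in the other 5 classes, so it was at least 12.2-fold lower. Among the others called lower were 2 complex I assembly factors, Ndufaf2 (log2 -0.82) and Ndufaf4 (log2 -0.59), and Sdhaf3 (log2 -0.94). Cox8b was also called lower (log2 -1.88, SE 0.61, edgeR adjusted p = 0.02), from 5 UMIs.

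In fibroblast cells 9 genes were higher and 4 lower, beside 12% and 14.8% of all genes, led by Ndufa4l2 (log2 1.06, SE 0.20, edgeR adjusted p = 5.2e-04), Cox4i2 (log2 0.75, SE 0.18, edgeR adjusted p = 3.8e-03) and Cox6a2 (log2 0.60, SE 0.12, edgeR adjusted p = 8.8e-04). Ndufa4l2 had 7.39, 18.6, 49.3 and 48.8 CPM in fibroblast cells, and both E14.5 libraries were above both E13.5 ones. The 12 cardiomyocyte markers stood at 3.44%, 5.2%, 9.36% and 7.18% of their cardiomyocyte level in fibroblast cells, above endothelial, valve and macrophage cells in control E13.5, CKO E13.5 and control E14.5, and their part in the call of Cox6a2 was not tested. Rgs5, a pericyte gene, was counted at 67.0 to 136 CPM in fibroblast cells and 1158 to 1455 in mural cells. The part of pericytes in the fibroblast values of Cox4i2 and Ndufa4l2 was not tested. In valve cells 2 genes were higher and 17 lower, so 19 were called, beside 24.7% of all genes. Those higher were Cox4i2 (log2 0.83, SE 0.21, edgeR adjusted p = 4.3e-03) and Cox6c (log2 0.33, SE 0.06, edgeR adjusted p = 2.0e-04). Those lower were spread over all 5 complexes and differed little, from log2 -0.19 for Cox6b1 to -0.40 for Ndufa9. Only 5 valve calls were left without control E13.5 and 4 without CKO E13.5, in place of 19.

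Endothelial cells had 15 genes higher and 13 lower, beside 18.9% and 22% of all genes. They had little of the 3 isoforms, with Cox4i2 at 1.76, 2.6, 5.66 and 4.42 CPM (log2 -3.03, SE 0.25, edgeR adjusted p = 5.1e-08), Ndufa4l2 at log2 -2.30 and Cox6b2 at -1.99. The highest were Sdhaf2 (log2 0.62), Ndufs8 (0.44), Ndufa8 (0.42) and Cox7a2l (0.40). Of the 28 genes called, 18 were called without control E13.5 and 16 without CKO E13.5. Macrophages had 11 of 93 genes higher and 2 lower, beside 16.3% and 21.7% of all genes. Cox7a1 had 53, 31.8, 53.6 and 85.1 CPM in macrophages (log2 1.75, SE 0.35, edgeR adjusted p = 4.7e-06), from 39 UMIs. It was followed by the complex I subunit Ndufb8 (log2 0.83, SE 0.15, edgeR adjusted p = 3.1e-07) and by Cox5a (log2 0.72, SE 0.14, edgeR adjusted p = 1.9e-06), and 3 of the 4 complex II subunits were higher, Sdha (log2 0.67), Sdhd (0.63) and Sdhc (0.54). Without CKO E13.5 there were 8 calls in macrophages and 8 in fibroblasts in place of 13 each, and without control E14.5 there were 8 in fibroblasts and 2 in mural cells.

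Apart from these isoforms the non-myocyte classes stood close together. The mean share of UMIs from the 96 genes lay between 2.48% in valve cells and 2.82% in mural cells. Mural cells were highest through the E14.5 libraries, with 2.43%, 2.77%, 3.16% and 2.94%, where the cardiomyocyte markers stood at 13.7% and 14.2% of their cardiomyocyte level. The median log2 difference of the members from the other classes was -0.01 in endothelial, 0.05 in epicardial, 0.05 in fibroblast, 0.04 in macrophage, 0.09 in mural and -0.10 in valve cells. Complex by complex, the fold between cardiomyocytes and the other cells was widest for complex II, with a mean over the libraries of 3.58 and a range of 3.24 to 3.82. It was 3.45 for complex III, 3.35 for complex IV, 3.35 for ATP synthase and 2.75 for complex I.

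The mt- genes, the mitochondrially encoded partners of these subunits, differed less. The 13 mt- protein genes stood in 10 rows of the table, some of which join neighbouring genes, and 8 had enough UMIs to test. All 8 were higher in cardiomyocytes by edgeR, from log2 1.26 for mt-Nd4_mt-Nd4l to 1.70 for mt-Nd6, with a median of 1.49 beside 1.95 for the nuclear genes. The most abundant, mt-Cytb of complex III, had 7839.6, 7437, 4837 and 5770.2 CPM in cardiomyocytes and 4095, 4102, 2512 and 2719 elsewhere (log2 1.30, SE 0.07), and mt-Co1 of complex IV had 506, 880.2, 700.2 and 1120.0 and 244, 445, 338 and 469.9 (log2 1.43, SE 0.07). The other rows tested were mt-Nd1_mt-Ti (log2 1.54), mt-Nd2_mt-Tw (1.55), mt-Nd3 (1.43) and mt-Nd5 (1.61), all of complex I, and the value of mt-Nd3 rests on the CKO libraries, since its cardiomyocyte level was 0 CPM in both controls. The rows mt-Co2 and mt-Atp6_mt-Atp8_mt-Co3 held 7 and 18 UMIs, so these transcripts were all but missing from the table and subunit by subunit comparison with complex IV and ATP synthase was not possible.

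Summed over the protein rows, mt- messenger RNA made up 2.36%, 2.17%, 1.49% and 1.79% of cardiomyocyte UMIs and 1.1%, 1.08%, 0.709% and 0.784% of those of the other cells, a ratio of 2.02 to 2.28. Set against the nuclear genes this gave 0.292, 0.254, 0.190 and 0.217 mt- messenger UMIs per respiratory chain UMI in cardiomyocytes (0.238 ± 0.044, SD, n = 4) and 0.445, 0.391, 0.269 and 0.301 in the other cells (0.352 ± 0.081, SD, n = 4). Cardiomyocytes had the lower ratio in each library, while the pooled ranges overlapped. Epicardial cells were near cardiomyocytes, at 0.319, 0.289, 0.216 and 0.206, with 5 of the 8 mt- protein rows called lower than in the other non-myocyte classes. Relative to the other cells of its library the cardiomyocyte ratio was 0.655, 0.650, 0.708 and 0.720 times as high, and a two-sided exact paired permutation test gave p = 0.125, the smallest p that 4 pairs allow. The mt- ribosomal RNAs, mt-Rnr1 and mt-Rnr2, differed least between cardiomyocytes and the rest, by 1.02 to 1.22 times in their summed share.

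**Figure D3:**
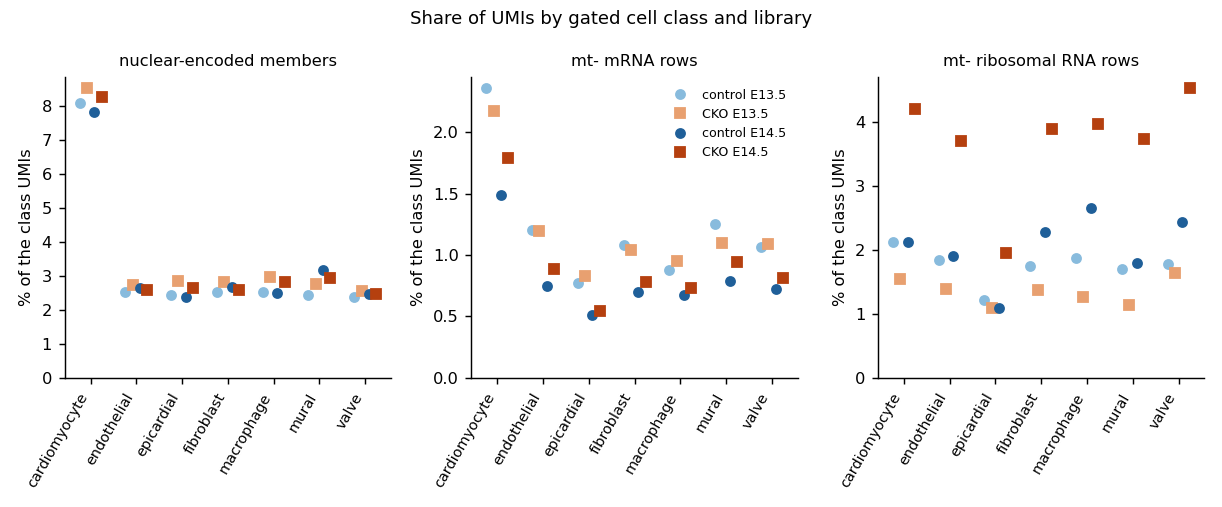
Share of all UMIs of a class (y axis, percent) from the 96 nuclear genes, the mt- protein rows and the mt- ribosomal rows, for each class (x axis) with 1 point per library. The nuclear share is 7.81% to 8.54% in cardiomyocytes and 2.48% to 2.75% in the other 6 classes summed, whereas the ribosomal shares of cardiomyocytes and of the other 6 classes summed overlap.

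Genes around the chain, from lists chosen by pathway, were called in the same direction. All 13 tricarboxylic acid cycle genes were higher in cardiomyocytes, with a median log2 difference of 2.03, led by Idh3a, a subunit of isocitrate dehydrogenase (log2 3.05, SE 0.09). Of 25 electron carriers and assembly genes that the naming rule leaves out, 22 could be tested and 20 were higher, with a median of 1.21. The mobile carrier Cycs, cytochrome c, stood at log2 2.45 and Cyc1, cytochrome c1 of complex III, at 2.63, and Cox16 and Ttc19 were not called. Of 16 biogenesis and energy transfer genes 15 were higher. The coactivator Ppargc1a differed by log2 3.69, its partner receptors Esrra, Esrrb and Esrrg by 2.17, 3.64 and 3.35, and the mitochondrial creatine kinase Ckmt2 by 5.27, whereas Nrf1, whose product binds the motif counted above, was not called (log2 -0.14, edgeR adjusted p = 0.27). Without TMM scaling Nrf1 was called lower (log2 -0.49, edgeR adjusted p = 7.5e-04), Surf1, Cox18, Cox19, Tfam and Tfb2m lost their calls, and 17 of 22 and 13 of 16 were higher, with all 13 of the tricarboxylic acid cycle.

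Genotype was compared within each class over the 4 libraries with stage in the model, which leaves 1 residual degree of freedom. No respiratory chain gene was called between CKO and control by edgeR's quasi-likelihood test, 0 of 94 in the pooled epicardial and fibroblast cells and 0 of 94 in cardiomyocytes, and DESeq2 also called 0. At unadjusted p under 0.05 there were 5 and 6, and the share of all genes at that limit is not given here. Among all genes tested 0.0245% were called in the pooled cells and 0% in cardiomyocytes, so few genes of any kind passed. The same held in endothelial (0 members called, 0.00883% of all genes), epicardial (0 and 0.128%), fibroblast (0 and 0.00882%), macrophage (0 and 0.29%), mural (0 and 0.0156%) and valve cells (0 and 0.238%), where 5, 7, 3, 7, 2 and 4 members had an unadjusted p under 0.05 and DESeq2 called 0. In counts simulated on this design for 12227 genes of the pooled cells, 21.4% of genes changed 2-fold and 96.1% of genes changed 4-fold were called, so a change of 2-fold would often be missed.

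The members with the lowest unadjusted p in the pooled cells had positive values. Cox6b2 had 46.7, 86.7, 35.4 and 82.7 CPM in the 4 libraries, with CKO above control at both stages (log2 1.07, SE 0.22, edgeR adjusted p = 0.61). On the log2 scale CKO over control gave 0.88 (0.54 to 1.25) on the earlier day and 1.22 (0.71 to 1.76) on the later, with 95% exact binomial intervals for counting error only. With no filter on low counts it was called at log2 1.09 (edgeR adjusted p = 0.0033). Within epicardial cells alone Cox6b2 had 86.1, 179, 70.8 and 154 CPM (log2 1.08, SE 0.30, edgeR adjusted p = 0.27). In fibroblast cells alone it had 36.3, 62.2, 29.8 and 43.4 (log2 0.69, SE 0.22, edgeR adjusted p = 0.96). Epicardial cells, where Cox6b2 was highest, gave 21%, 20.9%, 13.6% and 35.4% of the UMIs of the pooled cells. The part of this epicardial share in the pooled values of Cox6b2 was not tested. The others were Ndufa11 (log2 0.52, SE 0.17, edgeR adjusted p = 0.82), Cox7c (log2 0.59, SE 0.22, edgeR adjusted p = 0.82), Ndufs5 (log2 0.89, SE 0.24, edgeR adjusted p = 0.74) and Atp5l (log2 1.55, SE 0.53, edgeR adjusted p = 0.82).

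Across classes many small differences pointed the same way without passing the test. Of the 73 members fitted in all 7 classes, 29 had a positive log2 value in every class and 2, Sdhc and Sdhd, a negative one in every class. Without TMM scaling these were 26 and 2. Those with positive values included Atp5e, Cox5b, Cox7c, Ndufs3 and Uqcrb. Ndufa11 had a positive log2 value in 7 of 7 classes (0.35 to 0.73), and Sdhc, a membrane anchor of complex II, a negative one in 7 of 7 (-0.54 to -0.04). The classes come from the same 4 libraries and are no independent evidence. Counts of genes with the same sign are not given for all genes. The median log2 ratio of the members in the pooled cells was 0.15 at E13.5, where 65 of 94 were positive, and -0.01 at E14.5, where 47 were. In cardiomyocytes it was 0.11 with 58 positive and 0.12 with 72 positive. Of the 94 members 48 had opposite signs at the 2 stages in the pooled cells and 30 in cardiomyocytes.

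**Figure D4:**
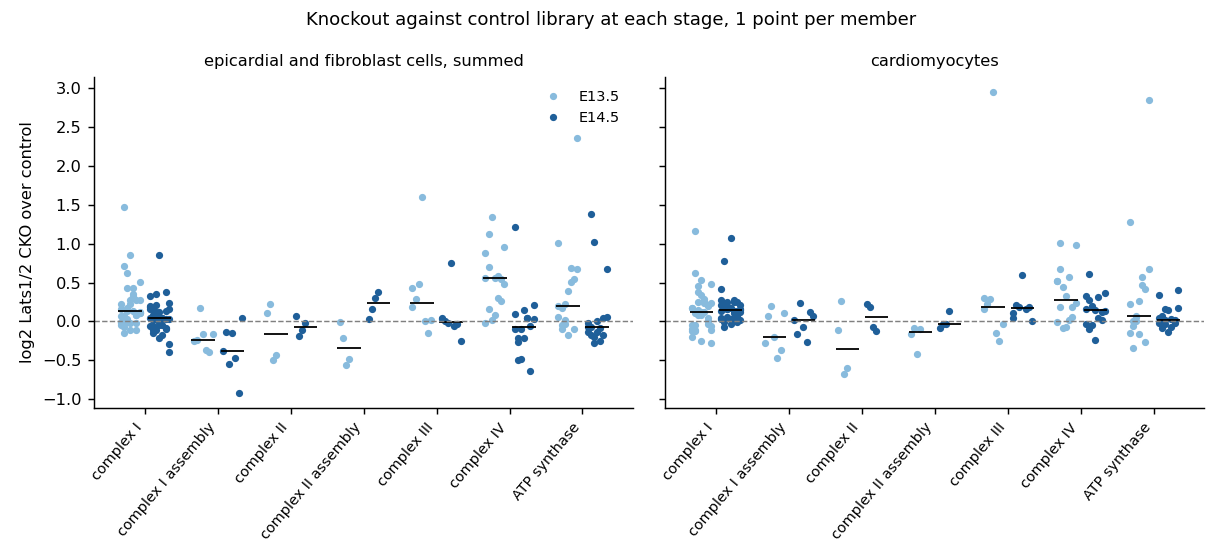
Log2 ratio of CKO over control for each member at E13.5 and at E14.5 (y axis), by complex (x axis), in the pooled epicardial and fibroblast cells and in cardiomyocytes. Black lines are medians within a complex. Over all members of a class and stage the medians lie between -0.01 and 0.15, and no member passed the test across both stages.

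Stage was compared in the same fits, and the E14.5 libraries differed from the E13.5 ones in depth as well, so stage and library cannot be told apart. The deposited cells also had different gene minimums, 500 at E13.5 and 300 at E14.5. The members most often called were Atp5g1, for subunit c of the ATP synthase, and Cox7c, a small subunit of complex IV. Atp5g1 had 347, 554, 1202 and 1356 CPM in cardiomyocytes and 75.4, 109.7, 307 and 316 in the other cells, and Cox7c had 164, 323, 1067 and 1369.9 and 74.8, 132, 365 and 428. Both E14.5 libraries were above both E13.5 libraries on each side. Cox7c was called in the pooled epicardial and fibroblast cells (log2 1.96, SE 0.22, edgeR adjusted p = 0.041), as the 1 member of 94 beside 0.344% of all genes. In endothelial cells 2 of 92 members were called (beside 0.397% of all genes), Cox7c (log2 2.27, SE 0.17, edgeR adjusted p = 0.016) and Atp5g1 (log2 1.94, SE 0.19, edgeR adjusted p = 0.041). The same 2 genes were the members called in epicardial cells (2 of 85, beside 0.922%) and in macrophages (2 of 73, beside 2.61%), and Atp5g1 was the 1 called of 82 in mural cells (beside 0.609%). In valve cells 4 of 93 were called (beside 1.87%): Cox7c (log2 1.80), Atp5g1 (1.82), Cox6a2 (1.78) and Cox5b (1.02). The 12 cardiomyocyte markers summed to 976, 1408, 4182 and 4036 CPM in valve cells, and their part in the call of Cox6a2 was not tested.

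In cardiomyocytes 0 of 94 members were called for stage by edgeR, beside 0.0215% of all genes. There were 25 at unadjusted p under 0.05, and DESeq2 called 6: Atp5g1, Atp5g2, Cox5b, Cox7c, Cox8b and Ndufb4. The shares of all genes at these limits are not given here. Atp5g1 (log2 1.56, SE 0.17, edgeR adjusted p = 0.3) and Cox7c (log2 2.41, SE 0.19, edgeR adjusted p = 0.18) had positive values there as well. In fibroblast cells 0 of 93 were called, beside 0.256% of all genes, and 18 had an unadjusted p under 0.05. Over the 7 classes Atp5g1 was higher at E14.5 in 7 (log2 1.56 to 2.21, 5 called) and Cox7c in 7 (1.60 to 2.52, 4 called). Cycs, the carrier outside the naming rule, was at log2 2.21 in cardiomyocytes and 2.37 in endothelial cells. The muscle isoforms Cox8b (log2 1.04, SE 0.11, edgeR adjusted p = 0.3) and Cox7a1 (log2 0.66, SE 0.12, edgeR adjusted p = 0.41) were not called in cardiomyocytes.

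The make-up of the subunit c transcripts differed between the stages. Atp5g1 gave 16.3%, 24.3%, 47.8% and 52% of Atp5g UMIs in cardiomyocytes and 13.9%, 19.2%, 44% and 47.6% in the other cells. Atp5g3 in cardiomyocytes had 1783, 1710.0, 1267 and 1194 CPM, lower in both E14.5 libraries (log2 -0.48, SE 0.13, edgeR adjusted p = 0.41). The share of Atp5g1 was thus higher in both E14.5 libraries on both sides. Of the 73 members fitted in all classes, 26 had a positive stage value in every class and 13 a negative one, or 21 and 18 without TMM scaling. Among the mt- rows, mt-Rnr1 and mt-Rnr2 were positive in 7 of 7 classes and called in macrophages and valve cells. In cardiomyocytes mt-Rnr2 had 20439, 14537, 20110 and 40333 CPM, so control E14.5 was not above control E13.5, whereas mt-Rnr1 had 744, 869, 1154 and 1621. Their summed share in epicardial cells was 1.22%, 1.09%, 1.09% and 1.95%, lower in control E14.5 than in control E13.5. In each other class that sum was higher in control E14.5 than in control E13.5. The protein rows mt-Nd1_mt-Ti (log2 -0.83 to -0.65, called in 1 class), mt-Cytb (-0.65 to -0.39) and mt-Nd4_mt-Nd4l (-0.63 to -0.33) were negative in 7 of 7. Not all protein rows went this way. A positive stage value was found for mt-Co1 in 6 of 7 classes (-0.0048 to 0.44) and for mt-Nd5 in 4 of 7 (-0.19 to 0.21). For mt-Nd2_mt-Tw and mt-Nd6 it was found in 1 of 7 each, and mt-Nd3, fitted in 2 classes, was positive in 0. Reads that Atp5g1 and Cox7c share with other loci, and depth, were not tested as a part of these differences.

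**Figure D5:**
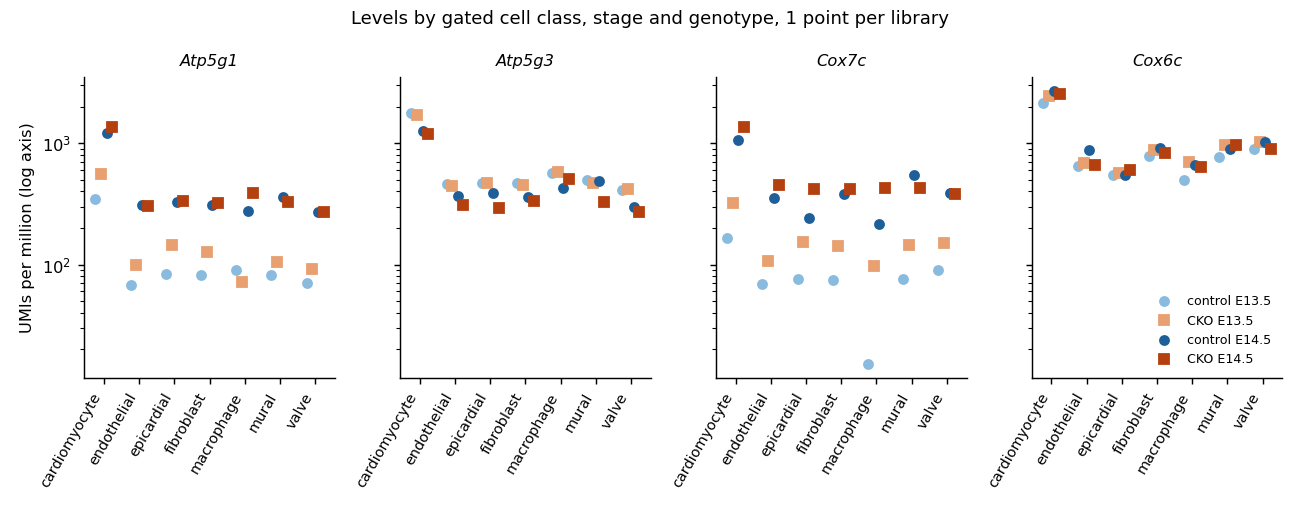
CPM (y axis, log scale) of Atp5g1, Atp5g3, Cox7c and Cox6c in each class (x axis), with 1 point per library. Atp5g1 and Cox7c are higher in both E14.5 libraries than in both E13.5 libraries of each class, whereas Atp5g3 in cardiomyocytes goes from 1783 and 1710.0 to 1267 and 1194.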

How the data were processed

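Single cells of 4 mouse heart libraries were measured by Drop-seq, and the authors deposited whole-number UMI counts per gene and cell, not normalized. Per the submitters' processing notes, STAR, Picard and the mm10 build were used, and versions, gene models and strand handling are not given in the sources used here. The design text writes the earlier day as 13.4, and the sample labels, which give 13.5, were followed.

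Filters of 500 UMIs and 300 genes as minimum and a mitochondrial share of 20% as maximum took out 14, 8, 1535 and 1797 cells of control E13.5, CKO E13.5, control E14.5 and CKO E14.5 and left 11163902, 17073173, 8569238 and 9114173 UMIs. The deposited cells already had at least 500 genes in both E13.5 libraries and 300 in both E14.5 ones. The kept cells of the 2 stages thus met different gene minimums. A cell joined a class when its marker UMIs per 10000 passed 300 (cardiomyocyte), 15 (epicardial, valve, endothelial), 50 (fibroblast), 10 (mural) or 40 (macrophage) from at least 2 to 4 markers. These thresholds were set after the cells were seen, and 1.44% (macrophage) to 12.5% (valve) of a class lay within 25% above its threshold. No doublet caller was run. Cells that passed several major gates (238, 464, 639 and 291) or none (288, 273, 443 and 472) were left out, and 14 cell barcodes occurred in more than 1 library.

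Counts were summed per library and class and scaled to a total of 1000000 (CPM). UMIs from 3' tags do not grow with transcript length, so levels of different genes were compared without length scaling. Tests were edgeR 4.0.16 quasi-likelihood fits in R 4.3.3 with filterByExpr, TMM scaling and p adjusted by Benjamini-Hochberg over all genes, called at 0.05. The SE is the size of the log2 value divided by the root of F. The fits set cardiomyocytes against the other classes and each non-myocyte class against the rest with the library as a block, and genotype and stage as additive terms. In the fits with the library as a block, the p-values rest on how the class difference varied between libraries, with each gene's spread estimated partly from all genes. The small p-values thus do not come from the libraries of that gene alone. These libraries differ in genotype and stage and are not replicates of 1 condition. The genotype and stage fits had 1 library for each genotype and stage, so their p-values do not measure spread between replicates. DESeq2 1.42.0, no low-count filter, mt- genes left out, no mitochondrial limit, a stricter gate and leaving out libraries were alternatives. Counts of members at an unadjusted p, by DESeq2 or of the same sign have no share of all genes beside them. Ratios within a stage have exact binomial intervals and shares Clopper-Pearson intervals, at 95%, for counting error only, and a count of 0 was set against a floor of 3 UMIs. The cardiomyocyte fit and the genotype fit were tested on simulated counts. Python 3.11.15 made the tables and figures.

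Genes named are the isoform families, the called genes of largest change (up to 8 in each direction), the most abundant gene of each complex and the mt- protein genes. Other genes named were chosen after their values were seen. The members and the gene lists were chosen with earlier results of these data known.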

Additional observations from a re-analysis of the deposited data

Results flagged for a closer look

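For Cox6a2 and Ndufa4 the CKO and control libraries differed in opposite directions at the 2 stages. In the pooled epicardial and fibroblast cells, Cox6a2 had a log2 ratio of CKO over control of 0.55 (95% exact binomial interval 0.03 to 1.12) at E13.5 and of -0.64 (-1.09 to -0.20) at E14.5. The 12 cardiomyocyte markers had the same order there, with 2002 CPM in control against 3041 in CKO on the earlier day and 5043 against 4509 on the later, and their part was not tested. In cardiomyocytes Ndufa4 had a ratio of -0.10 (-0.14 to -0.06) at E13.5 and of 0.21 (0.16 to 0.25) at E14.5. Each ratio sets 1 library against 1 other, the intervals cover counting error only, and the difference between the stages was not tested.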

How the results depend on the processing

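Of 466 values recomputed under an alternative, 112 for the comparisons and 307 for single genes kept their direction and their side of the threshold or stayed within the spread. Of the rest, 34 values for the comparisons moved, and for single genes 11 lost the call, 1 gained it and 1 changed sign. The median log2 difference between cardiomyocytes and the other cells was 2.11 with a stricter gate and 1.61 without TMM scaling, an alternative chosen after seeing the data. The count of members lower in cardiomyocytes was 1 with DESeq2 and 1 to 2 with each library left out. Ndufa4l2 changed sign, to 0.016, without the control E14.5 library, and ranged from -0.31 to 0.016 with each library left out.

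Members called between non-myocyte classes with DESeq2 were 16 in endothelial cells, 5 in fibroblast, 5 in macrophage, 2 in mural and 5 in valve cells, in place of 28, 13, 13, 4 and 19. With each library left out the counts were 16 to 26, 8 to 15, 8 to 16, 2 to 3 and 4 to 20 in the same order, and 9 to 12 in epicardial cells in place of 13. No low-count filter gave 33 in valve cells, and the stricter gate 2 in mural cells. Cox6b2 in cardiomyocytes, Cox6a2 in mural cells and Cox4i2 in valve cells (log2 0.80 with DESeq2, adjusted p = 0.053) each lost their call under at least 3 alternatives.

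For genotype, no low-count filter gave 1 called member in the pooled cells, and the median there was -0.0056 in the E14.5 libraries alone. The cardiomyocyte median was 0.14 without the filter, 0.14 without mt- genes, 0.10 with the stricter gate, 0.093 without TMM scaling and 0.12 at E14.5 alone. For stage, the pooled cells had 2 called members with DESeq2, 6 without the filter, 2 without mt- genes, 2 without the mitochondrial limit and 0 with the stricter gate, and cardiomyocytes had 6 with DESeq2 and 4 without the filter. The cause of these shifts was not tested. For genotype and stage no pairing of replicates was possible, because each group had 1 library. The genotype fits held stage as a term, which sets each CKO library against the control of its day, and a fit without 1 library leaves no residual degree of freedom for genotype or stage.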

Other observations

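The mitochondrial gene mt-Nd3, which encodes a subunit of complex I, was counted almost only in the CKO libraries. In cardiomyocytes it had 0 UMIs in control E13.5, 383 in CKO E13.5, 0 in control E14.5 and 91 in CKO E14.5. In the other 6 classes summed it had 1, 245, 0 and 24 UMIs in the same order. The edgeR test called mt-Nd3 between genotypes in valve cells (adjusted p = 0.022), from 1, 40, 0 and 5 UMIs, and DESeq2 did not. It was not called in cardiomyocytes (edgeR adjusted p = 0.98) or in the pooled epicardial and fibroblast cells (edgeR adjusted p = 0.42). Rows such as mt-Cytb and mt-Nd5 were counted in every library. The genotype value of mt-Co1 was positive in 7 of 7 classes (log2 0.54 to 0.88). So were those of mt-Nd5 (0.16 to 0.29), mt-Rnr1 (0.08 to 0.57) and mt-Cytb (0.03 to 0.15). It was positive in 6 of 7 for mt-Rnr2 and 3 for mt-Nd1_mt-Ti. For mt-Nd2_mt-Tw, mt-Nd4_mt-Nd4l and mt-Nd6 this was 2 each. Apart from mt-Nd3, these rows were called in 0 classes. The source of these differences was not tested.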
